A study of Mus musculus with 4 samples.

Results

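Endothelial cells line blood and lymph vessels, and 9 genes whose products mark that lining were followed through RNA-seq of MDSCs treated with EGCG. The genes were Cdh5, Plvap, Pecam1, Tek, Tie1, Emcn, Esam, Eng and Egfl7, each taken by its gene name, and they were 9 of the 53465 genes in the count table. They were selected on their counts in these same libraries, because endothelial markers were lower in the EGCG treatment group, so their difference between the groups is given as a description without a test. MDSCs, or myeloid-derived suppressor cells, are immature myeloid cells that build up in tumor-bearing hosts and restrain T cells, and EGCG is the main catechin of green tea. The cells came from spleens of BALB/c mice carrying the 4T1 breast cancer model, a transplanted mammary carcinoma line, and were collected with magnetic beads and an antibody to Gr-1 (Ly-6G/Ly-6C), which selects for myeloid cells, and whether endothelial cells were carried along was not measured. All 4 libraries came from such tumor-bearing mice, and the groups differed in the 6 h culture after the sort, which held control medium for control replicates 1 and 2 and medium with EGCG at 5 μg/mL for EGCG replicates 1 and 2. The labels place the harvest on day 21, whereas the study's methods give an earlier day for sorting, and no source states if the replicates were separate mice or separate cultures. P-values of the tests below therefore measure only the spread between these libraries, which may be technical.

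A blood vessel is sealed by junctions between neighbouring endothelial cells, in which VE-cadherin, PECAM-1 and ESAM hold the cells together. Growth and quiescence of the vessel wall are set in part by receptor tyrosine kinases of the TIE family and by endoglin, a co-receptor for TGF-β and BMP ligands. Endothelial cells of the spleen line its sinuses and small vessels, and several of their genes are also used by other blood cells, since PECAM-1 is carried by myeloid cells and platelets and endoglin by some macrophages and progenitors.

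Between 17767318 and 18390385 reads were counted on genes per library, and the TMM scaling factors ran from 0.987 to 1.03. The markers of the sorted cells were high in every library. Ly6g, which carries the main epitope of granulocytic MDSCs, had 17223 and 19476 reads in control and 21752 and 17236 with EGCG, and the summed level of 11 neutrophil genes was 62120 to 73640 CPM (read counts scaled to library size with TMM factors) in control and 73390 to 82600 CPM with EGCG. Against that background the endothelial genes were rare. The 9 genes together summed to 135 and 148 CPM in control and to 110 and 115 CPM with EGCG, most of it from Pecam1.

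Eng and Tek are shown here by the DNA in front of them, because genes that are lower together invite a look at the letters upstream, and because in these the 250 bases before the start held no annotated exon. RefSeq promoter entries (GRCm38.p6) were matched for 5 of the 9 genes, and none was used for Cdh5, Plvap, Pecam1 and Esam. The sequences run 5′ to 3′ in the direction of transcription, both on the plus strand, and capitals mark the core GGAA, or its reverse complement TTCC, that ETS transcription factors read. Eng is shown over chr2:32646345-32646594 and Tek over chr4:94739039-94739288.
Eng: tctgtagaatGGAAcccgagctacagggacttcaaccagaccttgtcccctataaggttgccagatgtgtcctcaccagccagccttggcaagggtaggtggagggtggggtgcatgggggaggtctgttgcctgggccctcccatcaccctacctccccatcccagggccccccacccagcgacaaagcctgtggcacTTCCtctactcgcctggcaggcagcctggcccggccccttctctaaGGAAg
Tek: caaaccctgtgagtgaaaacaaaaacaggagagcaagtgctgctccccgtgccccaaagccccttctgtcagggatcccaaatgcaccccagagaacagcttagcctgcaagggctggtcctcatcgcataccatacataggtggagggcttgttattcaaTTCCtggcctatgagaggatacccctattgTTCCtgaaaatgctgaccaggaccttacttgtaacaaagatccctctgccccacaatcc
The Eng window held 3 copies of the ETS core and the Tek window 2, and in the windows not printed Tie1 held 7, Emcn 4 and the 3 of Egfl7 held 5, 3 and 1, whereas 93.4% of 32851 promoter windows of the same length held at least 1 and the median window held 3. Of 3 further motifs searched on both strands, the GATA motif AGATAA was in none of these windows, against 9.99% of all windows. The SOX motif AACAAT was found at 1 place in Tek and 1 in Emcn, against 9.42% of windows. The KLF motif CCACCC was found at 2 places in Eng, 1 in Tie1 and 1 in an Egfl7 window, against 28.1%. These matches describe the letters and are not shown to be bound sites.

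Cdh5, Pecam1 and Esam encode adhesion proteins of the endothelial junction. Cdh5 (ENSMUSG00000031871, chr8:104101625-104144511 of GRCm38, plus strand) encodes VE-cadherin, the cadherin of endothelial adherens junctions. It had 126 and 114 reads in control and 59 and 72 with EGCG, which is 6.90 and 6.38 CPM against 3.25 and 4.03 CPM. Both EGCG libraries lay below both controls, and the higher EGCG library reached 63.2% of the lower control. The mean was 6.64 ± 0.368 CPM (SD, n = 2) in control and 3.64 ± 0.550 CPM (SD, n = 2) with EGCG. The fitted log2 fold change was -0.87 (SE, an approximate standard error, 0.20). Counting error alone gave a 95% exact Poisson interval of 5.83 to 7.54 CPM for the 240 control reads and 3.04 to 4.32 CPM for the 131 EGCG reads.

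Pecam1 (ENSMUSG00000020717, chr11:106654217-106750628, minus strand), which encodes the adhesion molecule CD31, was by far the most abundant of the 9 genes. It had 1826 and 1984 reads in control and 1583 and 1590 with EGCG, with means of 105.5 ± 7.795 and 88.2 ± 1.21 CPM (SD, n = 2 each). The groups did not overlap, but they lay close together, with the higher EGCG library at 89.0% of the lower control. The log2 fold change was -0.26 (SE 0.08), or 16.4% lower.

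Esam (ENSMUSG00000001946, chr9:37528078-37538319, plus strand) encodes an adhesion molecule of tight junctions that platelets carry too. It had 15 and 18 reads in control and 1 and 13 with EGCG. EGCG replicate 1 stood far below the other 3 libraries, and EGCG replicate 2 lay just under control replicate 1, at 0.728 against 0.822 CPM. The fitted log2 fold change of -1.22 (SE 0.65) rested on that single library. It was -0.32 without EGCG replicate 1 and -3.89 without EGCG replicate 2, which leaves 1 read in the EGCG group.

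Tek and Tie1 encode the TIE receptors. Tek (ENSMUSG00000006386, chr4:94739289-94874976, plus strand) encodes TIE2, the receptor of the angiopoietins, and Tie1 (ENSMUSG00000033191, chr4:118471191-118490061, minus strand) its partner without a firmly established ligand of its own. Tek was rare, with 16 and 21 reads in control and 6 and 11 with EGCG, or 0.876 and 1.18 CPM against 0.331 and 0.616 CPM. The groups did not overlap, but the EGCG libraries differed from each other by 0.90 on the log2 scale, nearly as much as the fitted log2 fold change of -1.11 (SE 0.48). That change was -0.73 without EGCG replicate 1 and -1.61 without EGCG replicate 2. The 95% Poisson intervals of the pooled reads were 0.721 to 1.41 CPM in control and 0.275 to 0.756 CPM with EGCG. These intervals overlapped.

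Tie1 had 82 and 71 reads in control and 54 and 49 with EGCG, which is 4.49 and 3.97 CPM against 2.98 and 2.74 CPM. All replicates of a group lay near each other, and the higher EGCG library was at 75.0% of the lower control. The log2 fold change was -0.56 (SE 0.22), and it stayed between -0.65 and -0.47 when any 1 library was left out.

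Eng (ENSMUSG00000026814, chr2:32646595-32682669, plus strand) encodes endoglin. It had 212 and 222 reads in control and 171 and 184 with EGCG, or 11.6 and 12.4 CPM against 9.43 and 10.3 CPM. The groups did not overlap and the difference was small, at -0.28 on the log2 scale (SE 0.14). Of its exonic bases, 61 (1.5%) are shared with Fpgs on the other strand, a gene of 120 to 175 reads, and the counting ignored strand.

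Plvap and Emcn encode surface proteins of the vessel lumen. Plvap (ENSMUSG00000034845, chr8:71497765-71511752, minus strand) encodes the protein of the diaphragms that span caveolae and fenestrae. It had 154 and 170 reads in control and 102 and 104 with EGCG, at 8.43 and 9.51 CPM against 5.63 and 5.82 CPM. The EGCG libraries were nearly equal and both lay well under the controls, the higher one at 69.0% of the lower control. The means were 8.97 ± 0.763 CPM in control and 5.72 ± 0.139 CPM with EGCG (SD, n = 2 each), which is -0.65 on the log2 scale (SE 0.17). The Poisson intervals of the pooled reads were 8.02 to 10.00 CPM and 4.97 to 6.56 CPM. Such intervals also lay apart for Cdh5, Pecam1 and Tie1, and they overlapped for Tek, Eng, Esam, Egfl7 and Emcn.

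Emcn (ENSMUSG00000054690, chr3:137341067-137432185, plus strand) encodes endomucin, a sialomucin of capillary and venous endothelium. It had 1 and 2 reads in control and 5 and 0 with EGCG, too few to pass the main filter and be fitted. Its highest value was in an EGCG library and so was its lowest, and it was the 1 of the 9 genes without a lower EGCG mean.

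Egfl7 (ENSMUSG00000026921, chr2:26580014-26593120, plus strand) encodes a secreted protein that endothelial cells lay down in their matrix. It had 26 and 35 reads in control and 16 and 27 with EGCG, or 1.42 and 1.96 CPM against 0.882 and 1.51 CPM. Here the groups overlapped, since EGCG replicate 2 was above control replicate 1. The log2 fold change was -0.50 (SE 0.37), and it moved to -0.16 without EGCG replicate 1, to -0.25 without control replicate 2 and to -0.93 without EGCG replicate 2. Egfl7 shares 264 exonic bases (7.4%) with Gm20532 on the same strand, which had 0 reads in every library, and 64 (1.8%) with the antisense gene Agpat2, which had 2054 to 2279 reads, so part of its few reads cannot be assigned with certainty.

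Egfl7 is also the host of a microRNA known for its part in vessel integrity, whose hairpin lies at chr2:26591357-26591429 (GRCm38.p6, plus strand). The hairpin is shown with its 3p mature part in capitals, followed by the mature strand with its seed, bases 2 to 8, in capitals, both from RefSeq.
Mir126a hairpin: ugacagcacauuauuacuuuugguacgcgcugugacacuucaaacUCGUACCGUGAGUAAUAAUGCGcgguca
mmu-miR-126a-3p: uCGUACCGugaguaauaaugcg
Mir126a was at 0 reads in all 4 libraries. All of its 73 bases lie in annotated exon of Egfl7, where reads can belong to either gene, so this 0 gives neither a level nor an upper limit for the microRNA.

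**Figure D1:**
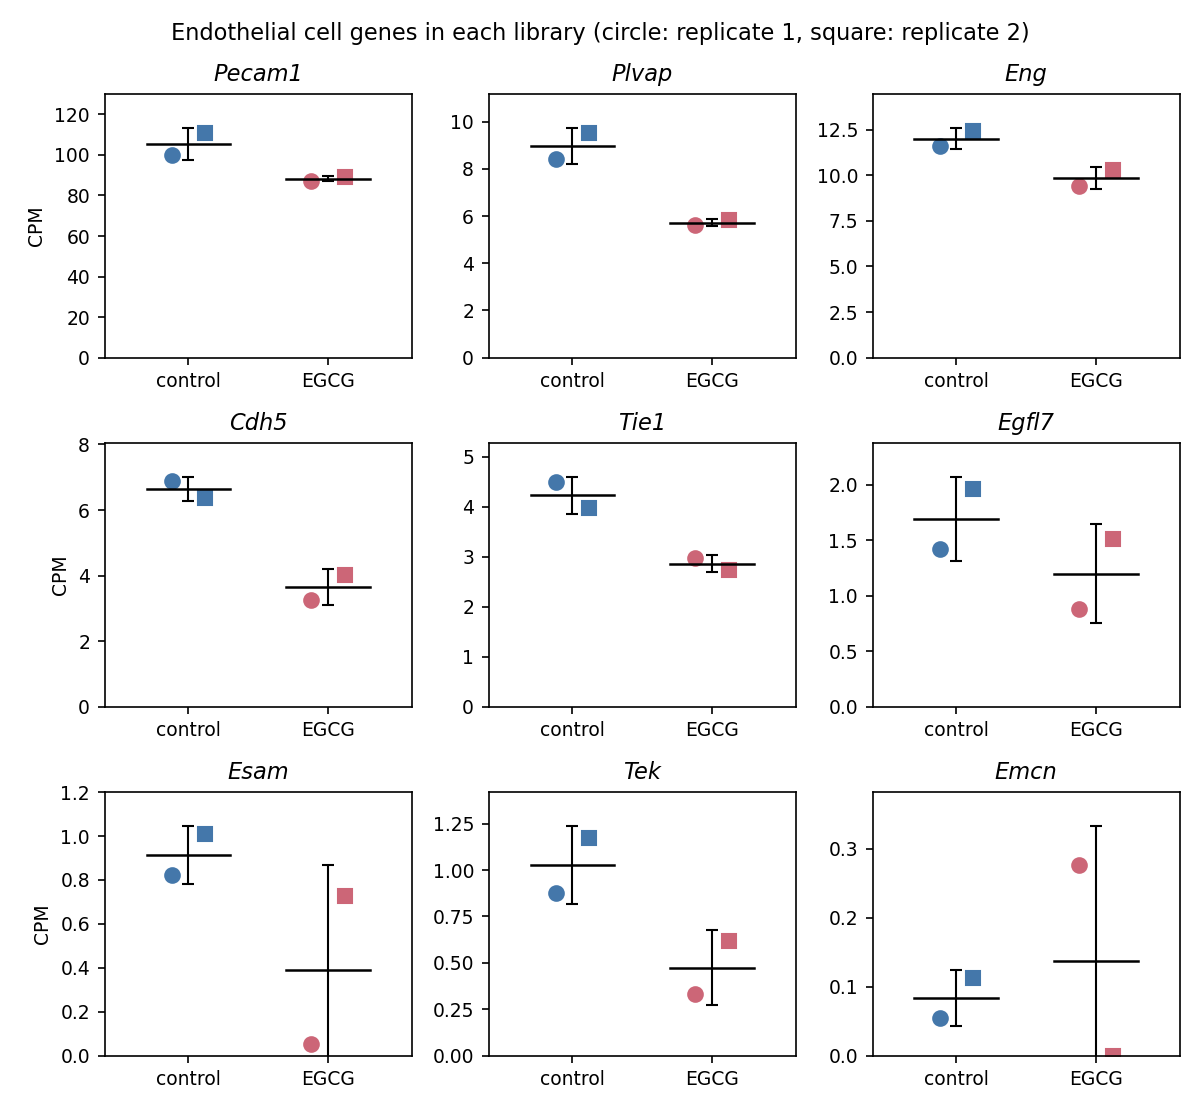
CPM (TMM-scaled, y axis from 0 and scaled for each gene) of the 9 endothelial cell genes in the 2 control libraries (blue) and the 2 EGCG libraries (red), with the mean as a line and the SD as a bar. Both EGCG points lie below both control points for 7 genes, while the groups overlap for Egfl7 and Emcn.

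Per length, the 9 genes spanned a wide range. On the scale of CPM per kb of exon, the control mean was 16.9 for Pecam1, 4.52 for Plvap, 2.97 for Eng and 1.58 for Cdh5. It was 0.861 for Tie1, 0.472 for Egfl7, 0.319 for Esam, 0.218 for Tek and 0.0154 for Emcn. No neighbours in that order overlapped in the control libraries. The order of the means was the same in the EGCG libraries, but Esam, at 0.0192 and 0.254 CPM per kb, overlapped there with Egfl7 above it and with Tek and Emcn below it.

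For 7 of the 9 genes both EGCG libraries were below both controls. Over all 14682 tested genes this held for 21.2%, and the reverse, both EGCG libraries above both controls, held for 21.5%. The median log2 fold change of the 9 genes, with Emcn counted at its own ratio, was -0.56, beside a median of 0.00 over all tested genes, of which 49.4% were fitted lower. These values follow from how the genes were picked and are not evidence about them. Among all tested genes the fold changes ranked between the 0.395 percentile (Esam) and the 14.2 percentile (Pecam1). The genes with the most reads, Pecam1 and Eng, had the smallest log2 fold changes, and the rarest ones that could be fitted, Esam and Tek, had the most negative. Without Pecam1, the summed level with EGCG was 68.3% of control, and without Pecam1 and Eng it was 61.2%, against 79.7% for all 9.

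**Figure D2:**
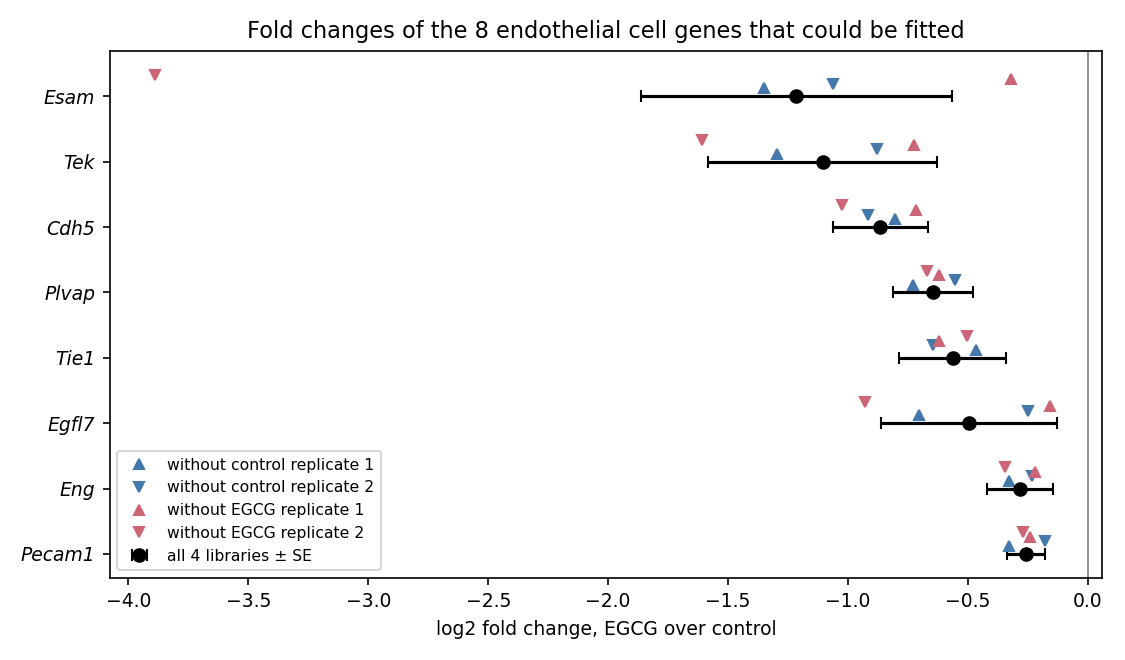
Log2 fold change, EGCG over control (x axis), of the 8 genes that could be fitted (rows), with all 4 libraries (black, bar ± 1 SE) and with each library left out in turn (triangles). The estimates stay below 0 in every case, Esam moves from -3.89 to -0.32, and Pecam1, Eng, Plvap and Tie1 have the narrowest ranges.

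Longer genes tended to lower fold changes in these libraries (Spearman's rho -0.29 over 14666 genes, which are no independent replicates). The exonic lengths of the 9 genes lay between the 24.0 and 75.1 percentiles of tested genes. After correction for length the log2 fold change was -0.86 for Cdh5, -0.69 for Plvap, -1.10 for Tek, -0.55 for Tie1, -0.29 for Eng and -0.22 for Pecam1, each within 0.04 of the uncorrected value.

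**Figure D3:**
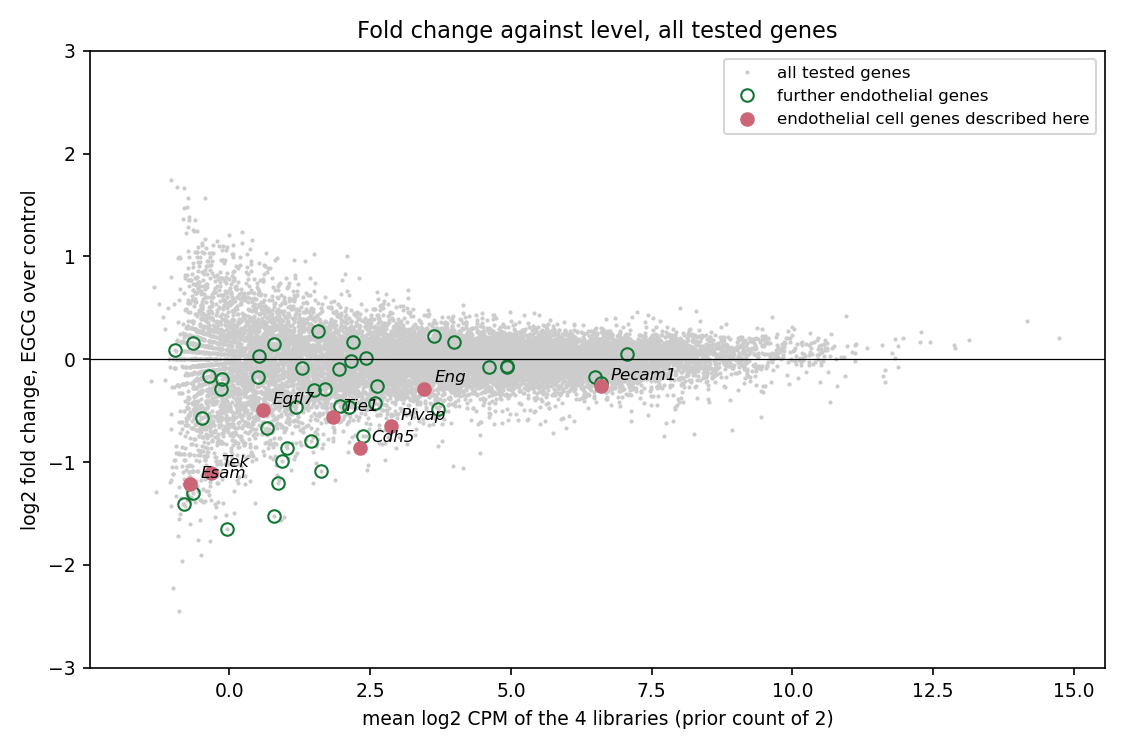
Log2 fold change, EGCG over control, against the mean log2 CPM of the 4 libraries for the tested genes (grey), the further endothelial genes (green rings) and the 8 fitted genes of the 9 (red). The red points lie below 0 at every level, within a grey cloud that widens toward low levels, and 5 genes lie outside the axis limits of ±3.

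Other endothelial genes were taken from a list of 54 that held none of the 9. That list was chosen with earlier results of these data known, so its counts are no independent check of the 9 genes. On it 42 genes could be tested, 32 were fitted lower and 10 higher with EGCG, and the median log2 fold change was -0.25, with a range of -1.65 to 0.28. With edgeR's quasi-likelihood test and Benjamini-Hochberg adjustment over all tested genes, 20 genes (0.136%) had an adjusted p under 0.05 in the lower direction and 2 (0.0136%) in the higher direction, and none of the 42 was among them. At an unadjusted p under 0.05, 13 of the 42 were lower and 0 were higher, where 7.02% of all tested genes were lower and 5.22% higher. DESeq2 called 0 of the 42 after adjustment and 9 lower and 0 higher without it, where 3.69% of all tested genes were lower. In 17 of the 42 both EGCG libraries were below both controls and in 2 above, against 21.2% and 21.5% of all tested genes. Of the 54, Gpihbp1, the capillary anchor of lipoprotein lipase, was at 0 in every library. The 13 of 42 became 8 of 43 when control replicate 1 was left out, where the share of all tested genes was 3.93%, and 8 of 45 when EGCG replicate 1 was, where it was 6.04%. The median depended on single libraries: leaving out control replicate 1 gave -0.12, leaving out control replicate 2 gave -0.43, and leaving out EGCG replicate 2 gave -0.41. How many genes of the list passed the adjusted threshold with a library left out is given in the closing section, beside the counts over all genes.

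The VEGF receptors belong to that list. Kdr, the main receptor of VEGF-A on endothelium, had 111 and 130 reads in control and 55 and 88 with EGCG, without overlap (log2 fold change -0.75, SE 0.23, adjusted p = 0.223). Flt4, the receptor of lymphatic and sinusoidal endothelium, had 57 and 42 reads in control and 16 and 18 with EGCG. Its log2 fold change of -1.53 (SE 0.32) had the smallest adjusted p of the list, 0.0797, and it passed the threshold when control replicate 2 or EGCG replicate 2 was left out. Flt1, which binds VEGF-A as a decoy, had 115 and 70 reads against 53 and 80 (log2 fold change -0.47), and its groups overlapped. After length correction the log2 fold change was -0.67 for Kdr, -1.46 for Flt4 and -0.33 for Flt1. Kdr passed the adjusted threshold when EGCG replicate 2 was left out (log2 fold change -1.13) and moved to -0.43 when EGCG replicate 1 was.

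The most abundant genes of the list per length had small log2 fold changes. Cd93, a lectin-like receptor that myeloid cells carry too, had 1918 and 1870 reads in control and 1541 and 1664 with EGCG (log2 fold change -0.24, SE 0.08, adjusted p = 0.251). Its groups did not overlap, and it was among the genes of the list lower at an unadjusted p under 0.05. Bmx, a cytoplasmic tyrosine kinase, had 2350 and 2401 reads against 2618 and 2291, and S1pr1, the receptor of sphingosine 1-phosphate, 546 and 574 against 505 and 558. Both of these overlapped between the groups.

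Further genes of the list were picked out after their values had been seen. Esm1, a proteoglycan of sprouting endothelium, had 30 and 24 reads in control and 9 and 8 with EGCG (log2 fold change -1.65). Robo4, a guidance receptor of the vessel wall, had 39 and 56 against 17 and 24 (-1.20), and Adgrf5, an adhesion receptor, 73 and 85 against 42 and 32 (-1.09). Vwf, the platelet-binding factor of endothelium and megakaryocytes, had 310 and 248 against 166 and 230 (-0.49). In each of these 4 genes the groups did not overlap, and none had an adjusted p under 0.05 with all libraries. Adgrf5 passed it when EGCG replicate 1 was left out, Robo4 when EGCG replicate 2 was, and Vwf when either control replicate 2 or EGCG replicate 2 was. Leaving out EGCG replicate 1 moved Vwf to -0.26 and leaving out EGCG replicate 2 moved it to -0.75. After length correction Vwf was at -0.34, Adgrf5 at -1.01, Robo4 at -1.19 and Esm1 at -1.68. By contrast Selp, the P-selectin of activated endothelium and platelets, had 196 and 214 reads in control and 225 and 253 with EGCG, so both EGCG libraries were higher.

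**Figure D4:**
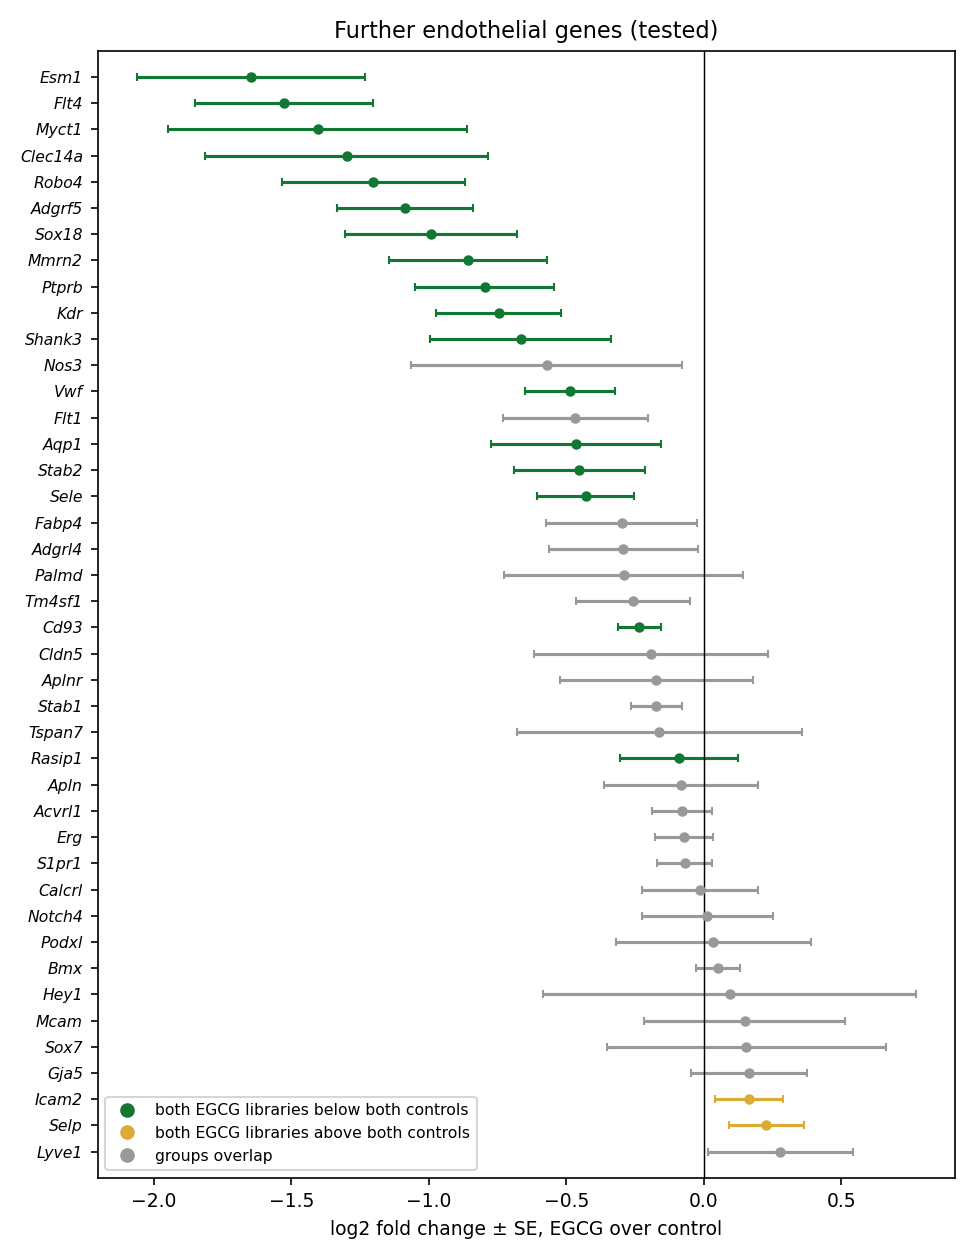
Log2 fold change ± 1 SE, EGCG over control (x axis), of the 42 tested genes of the further endothelial list (rows), with green for both EGCG libraries below both controls, yellow for both above and grey for overlap. There are 17 green and 2 yellow genes, and the values run from -1.65 (Esm1) to 0.28 (Lyve1).

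The genes around the TIE receptors were on a list of 13, of which 10 were tested. Among these 7 were fitted lower and 3 higher, the median log2 fold change was -0.24, and none passed the adjusted threshold. At an unadjusted p under 0.05 there were 3 lower and 0 higher, against 7.02% and 5.22% of all tested genes. These 3 were Kdr, Flt4 and Ptprb, which are also on the further endothelial list and were counted there. Ptprb, the endothelial phosphatase that removes phosphate from TIE2, had 65 and 59 reads in control and 33 and 38 with EGCG (log2 fold change -0.80, SE 0.25, adjusted p = 0.230). After length correction Ptprb was at -0.67. Angpt1, the activating ligand, had 20 and 40 reads in control and 42 and 38 with EGCG, and Angpt2, the context-dependent ligand, had 14 and 14 against 20 and 27 (log2 fold change 0.75, SE 0.39, adjusted p = 0.472). Dok2, an adaptor downstream of TIE2 that is common in myeloid cells, had 2253 and 2249 reads against 2338 and 2115. Vegfa had 1097 and 899 against 1025 and 1142, and Vegfb 93 and 78 against 78 and 91. Pgf, a further VEGF-family ligand named after its values were seen, had 18 and 17 against 8 and 15.

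All 12 junction partners were tested, and 8 were fitted lower and 4 higher with a median log2 fold change of -0.12. None passed the adjusted threshold, and 2 were lower at an unadjusted p under 0.05, where 7.02% of all tested genes were. The catenins that bind VE-cadherin or its complex differed in level. Ctnnb1 had 10487 and 9473 reads in control and 9346 and 9984 with EGCG, and Ctnna1 1446 and 1428 against 1323 and 1470. Ctnnd1, which encodes p120-catenin and was named after its values were seen, was rare, with 75 and 55 reads against 43 and 38 (log2 fold change -0.67, SE 0.26, adjusted p = 0.318), and was at -0.45 when control replicate 1 was left out. Icam2, an adhesion molecule of endothelium and leukocytes, had 293 and 246 reads against 300 and 302, the opposite order to Cdh5.

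In the endoglin pathway, 15 of 17 genes were tested, 7 fitted lower and 8 higher, with a median log2 fold change of 0.02. None passed the adjusted threshold, and 1 in each direction had an unadjusted p under 0.05. Over all tested genes those shares were 7.02% lower and 5.22% higher. Acvrl1, the type I receptor ALK1, had 628 and 501 reads in control and 534 and 530 with EGCG. Bmpr2, the type II receptor for BMP, had 1469 and 1457 against 1374 and 1295 and did not overlap between the groups. Tgfbr2, the type II receptor for TGF-β, had 2916 and 2712 against 2799 and 3032. Tgfbr1 had 3923 and 3960 against 3972 and 3986, and Tgfb1, the ligand, 5506 and 5214 against 4656 and 5524. Id2, an inhibitor of helix-loop-helix factors that BMP signals induce, had 4085 and 4413 against 4728 and 4804 (log2 fold change 0.17, SE 0.08, adjusted p = 0.398), and was at 0.11 when control replicate 1 was left out.

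All 9 genes of caveolae and the endothelial surface were tested, with 4 fitted lower, 5 higher and a median log2 fold change of 0.04. None passed the adjusted threshold, and 2 were lower at an unadjusted p under 0.05, against 7.02% of all tested genes. Procr, the receptor of protein C, had 210 and 203 reads in control and 132 and 161 with EGCG (log2 fold change -0.49, SE 0.15, adjusted p = 0.228). Procr is also on the stem and progenitor list and is counted again there. Thbd, encoding thrombomodulin, which acts with it on the vessel wall, had 227 and 213 against 258 and 231, and Cd34, a sialomucin of endothelium and progenitors, 133 and 157 against 142 and 133.

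Of 10 genes tied to Egfl7 and its microRNA, 7 were tested, with 4 fitted lower, 3 higher and a median log2 fold change of -0.18. None passed the adjusted threshold, and the 4 lower ones had an unadjusted p under 0.05, where 7.02% of all tested genes were lower. Notch1, a receptor that EGFL7 can bind, was abundant at 5407 and 5229 reads in control and 4264 and 4226 with EGCG, with close replicates and no overlap (log2 fold change -0.32, SE 0.07, adjusted p = 0.0961). It passed the threshold in DESeq2, with library size scaling and when control replicate 2 was left out, and was at -0.18 after length correction. Notch2 had a log2 fold change of -0.18 (SE 0.08, adjusted p = 0.363), which was -0.08 after length correction and -0.12 when EGCG replicate 1 was left out. Among known targets of miR-126, Pik3r2 had 782 and 696 reads against 758 and 724. Spred1, a second such target named after its values were seen, had 278 and 256 against 188 and 213 (log2 fold change -0.41, SE 0.13, adjusted p = 0.236).

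Of 20 endothelial transcription factors, 16 were tested, with 9 fitted lower, 7 higher and a median log2 fold change of -0.02. None had an adjusted p under 0.05, and 2 in each direction had an unadjusted p under 0.05. Of all tested genes, 7.02% were lower and 5.22% higher at that level. The ETS factor genes, whose motif was searched above, were mostly those that myeloid cells share: Fli1 had 1811 and 1898 reads in control and 1863 and 1749 with EGCG, and Ets2 2346 and 2528 against 2297 and 2581. Erg, named after its values were seen, had 477 and 421 against 426 and 425. Klf2, a factor of flow-exposed endothelium and of leukocytes, had 4435 and 4557 against 4795 and 5745 (log2 fold change 0.24, SE 0.09, adjusted p = 0.323), and passed the threshold when EGCG replicate 1 was left out (0.37), while leaving out EGCG replicate 2 gave 0.09. In the other direction, and named after their values were seen, Sox18 had 39 and 53 reads against 25 and 21 (-0.99, SE 0.31, adjusted p = 0.229) and Klf4 614 and 523 against 385 and 506 (-0.34, SE 0.13, adjusted p = 0.311). Sox18 was already counted on the further endothelial list. Klf4 passed the threshold when EGCG replicate 2 was left out (-0.57) and was at -0.15 when EGCG replicate 1 was.

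In bulk RNA, fewer endothelial cells in the sorted sample and less RNA of these genes per cell cannot be told apart. Marker lists of other cell types in the spleen were therefore set beside the 9 genes, none of which had a gene past the adjusted threshold in edgeR with TMM scaling and all 4 libraries. With library size scaling Fn1 and Cd5l of these lists passed it, and in DESeq2 Cd5l did. The platelet and megakaryocyte list of 12 genes, a lineage that shares Pecam1, Esam and Vwf, summed to 50.2 and 56.6 CPM in control and 43.4 and 46.9 CPM with EGCG, or 84.5% of control. All 9 tested genes of it were fitted lower, with a median log2 fold change of -0.27. Of these 1, Itga2b (log2 fold change -0.28), was lower at an unadjusted p under 0.05, where 7.02% of all tested genes were. The platelet chemokine gene Pf4 overlapped between groups, with 74 and 93 reads against 60 and 102, as did Ppbp, with 21 and 69 against 42 and 41. None of that list was at 0 in all libraries.

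The stem and progenitor list summed to 83.7 and 87.3 CPM in control and 74.0 and 78.9 CPM with EGCG, with 6 of 8 tested genes fitted lower and a median of -0.13. Gata2, its most abundant gene per length and also on the list of endothelial transcription factors, had 844 and 885 reads against 765 and 796. The splenic macrophage list summed to 1364 and 1402 CPM in control and 1274 and 1404 CPM with EGCG, so its sums overlapped. Without Slc40a1, a gene left out after its values were seen, they did not overlap, at 802 and 777 CPM in control and 605 and 708 CPM with EGCG. Of its 13 genes, 11 were fitted lower and 2 higher, with a median log2 fold change of -0.27. At an unadjusted p under 0.05 there were 6 lower and 1 higher, against 7.02% and 5.22% of all tested genes. Its 3 most abundant genes per length were the iron exporter gene Slc40a1, with 10261 and 11168 reads in control and 12120 and 12434 with EGCG, Hmox1, with 6319 and 5974 against 4794 and 5849, and Adgre1, with 3579 and 4078 against 3285 and 3032. Slc40a1 was higher in both EGCG libraries, and the other two were lower in both. Cd5l (-0.59) and Mertk (-0.74), genes of macrophage survival and uptake of dead cells picked after their values were seen, were the most negative. Both passed the adjusted threshold when control replicate 2 or EGCG replicate 2 was left out, and both were at -0.33 when control replicate 1 was.

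The fibroblast and pericyte list, for the other cells of vessel walls and stroma, summed to 29.2 to 30.0 CPM in control and 29.9 to 32.0 CPM with EGCG. Only 5 of its 16 genes were tested (2 fitted lower, 3 higher), 1 was at 0 in every library and 5 in all never rose above 3 reads. Its most abundant genes per length were Acta2, with 404 and 429 reads against 486 and 429, Pdpn, with 21 and 28 against 28 and 30, and Tagln, with 28 and 16 against 23 and 22. The monocyte list summed to 1839 to 2025 CPM in control and 1686 to 1801 CPM with EGCG. On it 6 of 8 genes were fitted lower, with a median log2 fold change of -0.12. Of these, 2 were lower at an unadjusted p under 0.05, where 7.02% of all tested genes were. Without Fn1 the sums overlapped, at 1535 and 1535 CPM in control and 1468 and 1538 CPM with EGCG. Its 3 most abundant genes per length were Cd14, with 9481 and 9933 reads in control and 9756 and 10874 with EGCG, Csf1r, with 11537 and 10690 against 9710 and 10320, and Ly6c2, with 2196 and 2625 against 2861 and 2361. Fn1, the fibronectin gene, named after its values were seen, had 8952 and 5426 reads in control and 3950 and 4698 with EGCG (log2 fold change -0.72, SE 0.16, adjusted p = 0.0870). It was at -0.33 when control replicate 1 was left out, and passed the threshold when any other library was.

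The neutrophil list had 3 of 11 genes fitted lower and 8 higher, with a median of 0.13. At an unadjusted p under 0.05 it had 0 lower and 1 higher, against 7.02% and 5.22% of all tested genes. In that order the B cell list had 0 and 1, the T cell list 0 and 0, and the erythroid and 4T1 epithelium lists 1 and 1 each. The stem and progenitor list had 1 and 0, and the fibroblast and pericyte list 0 and 0. The most abundant neutrophil genes per length were those of the calprotectin subunits, S100a8 and S100a9, and then Retnlg. S100a8 had 264049 and 324571 reads in control and 414088 and 347878 with EGCG. S100a9 had 410020 and 505587 against 574197 and 482390, and Retnlg 61369 and 69223 against 82571 and 59842. The B cell list had a median of 0.10, with 1323 and 1353 reads against 1573 and 1410 for Cd79a and 1917 and 2180 against 2258 and 2122 for Cd79b. The T cell list had a median of 0.14, with 1374 and 1536 against 1590 and 1611 for Cd3d, 77 and 92 against 80 and 82 for Cd4, and 177 and 160 against 189 and 209 for Lck. The erythroid list had a median of 0.08, and its globin genes had 974 and 1211 against 1038 and 1317 reads for Hba-a1, 1475 and 1853 against 1922 and 1946 for Hbb-bs, and 161 and 193 against 147 and 216 for Hbb-bt. The 4T1 epithelium list had a median of 0.22, and 2 of its 8 genes were at 0 in every library. Its most abundant genes per length were Cdh1, with 402 and 366 against 294 and 345 reads, Epcam, with 65 and 59 against 92 and 99, and Krt18, with 19 and 10 against 24 and 19.

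Leaving out 1 library put further genes of the other cell types past the adjusted threshold, named after their values were seen. In the higher direction these were S100a8 when control replicate 2 or EGCG replicate 2 was left out, and S100a9 and Hbb-bs when control replicate 2 was. In the lower direction they were Adgre1 without control replicate 1, F13a1 without control replicate 2, Axl without either control replicate 2 or EGCG replicate 2, and C1qc, Spic, Hmox1 and Slc4a1 without EGCG replicate 2. The part of these cell types in the values of the 9 genes was not tested.

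**Figure D5:**
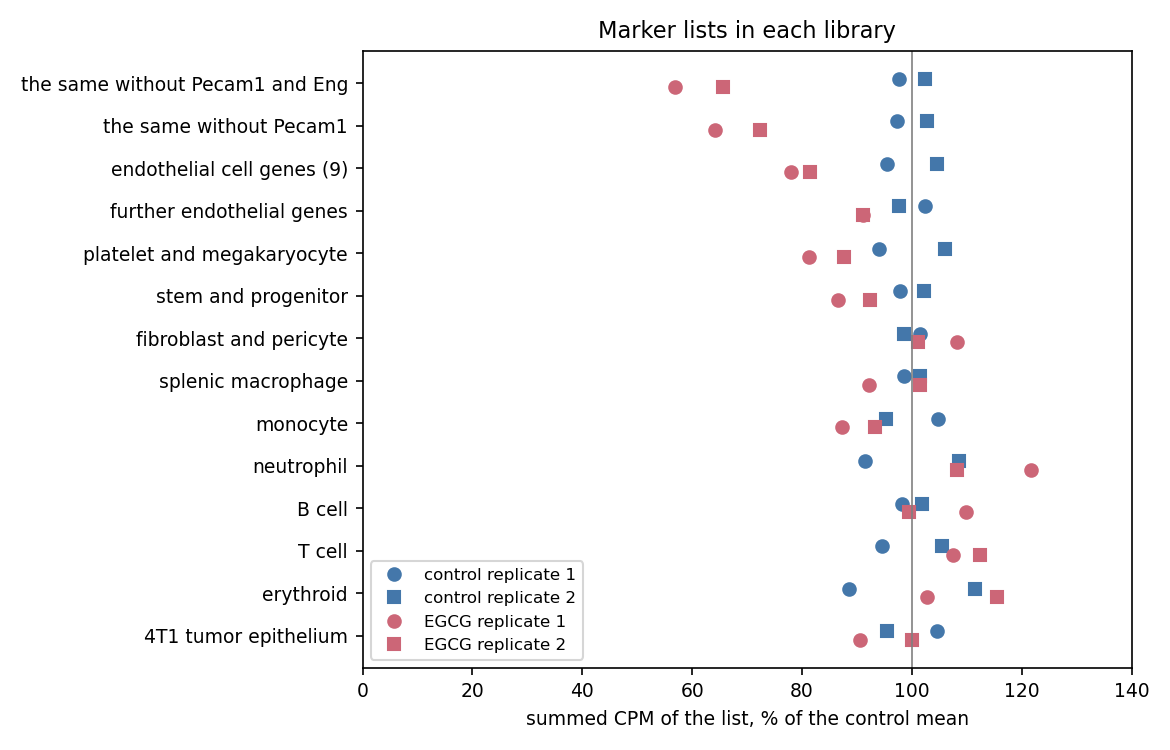
Summed CPM of each marker list in each library as a percent of that list's control mean (x axis), for control (blue) and EGCG (red) replicates 1 (circles) and 2 (squares). The 9 endothelial genes sit at 78.0% and 81.4% with EGCG, the further endothelial list at 91.1% in EGCG replicate 1, and the platelet list at 81.2% and 87.7%.

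Among 13457 tested genes with at least 10 reads in every library and on none of the lists, 5 had the profile closest to the mean profile of the 9 genes over the 4 libraries, by root mean square difference of centred log2 CPM. That mean profile was 0.21 and 0.39 in control and -0.43 and -0.17 with EGCG. The closest was Nid1, which encodes the basement membrane protein nidogen-1, with a difference of 0.0106 and with 80 and 90 reads in control and 51 and 61 with EGCG. Rnf213, encoding a large ubiquitin ligase, followed at 0.0112, with 4933 and 5530 against 3179 and 3682 reads. Socs2, a suppressor of cytokine signaling, was at 0.0243, Mamdc4 at 0.0409 and Alms1, a gene of the centrosome and cilium, at 0.0436. The likeness is a description over 4 libraries.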

How the data were processed

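RNA-seq libraries of 4 MDSC samples, 2 control and 2 EGCG, were grouped by their labels. The authors used STAR 2.6.0c for alignment to GRCm38 and featureCounts 1.6.2 for counting on Ensembl release 91, ignoring strand, and deposited raw whole-number counts per gene. Genes were filtered with filterByExpr (minimum count of 10), scaled by TMM, and tested in edgeR 4.0.16 (quasi-likelihood, legacy form, R 4.3.3) with Benjamini-Hochberg adjustment over 14682 genes at a threshold of 0.05. Fold changes used a prior count of 0.125, centred profiles a prior count of 2. The test was first tested on simulated data. Depth was about equal among libraries, and Poisson intervals (95%) cover counting error only. Gene models came from GENCODE M21, which held 53360 of 53465 identifiers.

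The 9 genes and all lists were chosen with earlier results of these data known, as were the alternatives: other filters and scalings, DESeq2 1.42.0, newer and robust edgeR fits, a length correction (loess, span 0.4), a replicate block, another prior count, and leaving out each library. Named genes were the 9 genes, the genes of each list past the threshold or otherwise the 3 with the highest CPM per kb, the receptors and ligands Angpt1, Angpt2, Kdr, Flt1, Flt4, Acvrl1, Bmpr2 and Tgfbr2, Mir126a, and the 5 most alike genes. Ly6g, Gpihbp1, Ptprb and those said to be so in the text were chosen after their values were seen. The lists overlap, with 19 genes on 2 of them. The microarray and reads were not used here. The result of 1 gene of the marker lists is not reported here.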

Additional observations from a re-analysis of the deposited data

How the results depend on the processing

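All 8 fitted endothelial genes kept a negative log2 fold change under each of the 11 alternatives that could test them and with each library left out. Their median with Emcn was -0.56 and ran from -0.60 to -0.55, and from -0.70 (without control replicate 1) to -0.56 with a library left out. It was -0.56 with a replicate block. Same-numbered libraries did not deviate together (r = 0.03 across 14682 genes), so the numbers were not taken as pairs, and the block gave 24 genes called lower and 6 higher.

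The number of genes called lower, 20, was 0 without a filter, 9 with upper-quartile scaling, 135 with library size scaling, 50 in DESeq2, 49 with robust estimation and 6 with length correction. The number called higher, 2, was 0 without a filter, 4 with at least 10 reads in every library, 16 with library size scaling, 14 in DESeq2, 6 in edgeR's newer form and 14 with robust estimation. Leaving out a library gave 72 (control replicate 1), 235 (control replicate 2), 90 (EGCG replicate 1) and 199 (EGCG replicate 2) called lower, and 5, 119, 28 and 53 called higher, in the same order. Further endothelial genes called were 0, but 2 (Flt4 and Adgrf5) with library size scaling and 1 (Flt4) with robust estimation, and 0 to 4 with a library left out. Their median, -0.25, ran from -0.43 to -0.12 with a library left out. The causes were not tested. Few reads limit Esam, Tek and Egfl7, whose sizes moved with the library left out, and Emcn, which did not pass the main filter.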
